A study of Mus musculus with 2 samples.

Results

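Integrated stress response genes and the mitokines of liver were followed in primary mouse hepatocytes with and without *Drp1*. The set held 10 of the 37071 gene names on the array: the transcription factors *Atf4*, *Atf5* and *Ddit3*, the effectors *Trib3* and *Chac1*, the amino acid enzymes *Asns*, *Phgdh* and *Psat1*, and the secreted hormones *Fgf21* and *Gdf15*. They were chosen by gene name, and every transcript probe with one of these names was used, 16 probes in all. Each of the 10 genes was detected (well above background) in both genotypes by at least 1 probe, so none was lost to the filter on dim probes that left 20165 genes to compare.

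In the integrated stress response, kinases that sense misfolded protein, amino acid shortage, viral RNA, heme shortage or a mitochondrial signal phosphorylate the translation factor eIF2. Most translation then slows, while translation of the *Atf4* mRNA increases, and the ATF4 protein activates genes for amino acid synthesis, amino acid import and tRNA charging, together with *Ddit3* (the factor CHOP), *Trib3* and *Chac1*. In tissues with damaged mitochondria the same pathway raises *Fgf21* and *Gdf15*, which are therefore called mitokines. FGF21 is also a fasting hormone of liver, under PPARα and its partners, and GDF15 acts on appetite through the brainstem receptor GFRAL.

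The study asked how loss of *Drp1* (the GTPase that divides mitochondria, listed as *Dnm1l*) affects liver disease, mainly under lipopolysaccharide. Its arrays compared gene expression in hepatocytes. The paper cites earlier work in *Drp1*LiKO mice in which endoplasmic reticulum stress promoted FGF21 expression. By PCR it reports higher *Atf3*, *Chop* (*Ddit3*), *P8* (*Nupr1*) and *Trib3* in *Drp1*LiKO livers given lipopolysaccharide and in *Drp1*LiKO hepatocytes given thapsigargin. By western blot it reports more phosphorylated eIF2α in *Drp1*LiKO livers given lipopolysaccharide. Those settings differ from that of the arrays. The PCR also covered saline-treated livers and PBS-treated hepatocytes, for which its results text states no separate outcome. Its discussion lists high *P8*, *Chop* and *Trib3* among the effects of *Drp1* defects, with no treatment named there. By the paper's methods, *Drp1*LiKO hepatocytes came from Alb-Cre Tg/+ *Drp1* flox/flox mice, in which the albumin promoter drives Cre in hepatocytes. Control hepatocytes came from *Drp1* flox/flox littermates without Cre, so that by these methods both genotypes carried the floxed alleles. The deposited label of the control array sample reads wild type control. The cells were isolated with collagenase from mice fed ad libitum and harvested 24 h after seeding. RNA of 1 sample per genotype was hybridized to 1 array each, and the number of mice behind each sample is not given in the sources used here. The methods state an age and male sex for purchased C57BL/6J mice, without saying whether this holds for the *Drp1*LiKO and control mice.

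Neither genotype had a replicate array, so nothing could be tested for significance and every value describes only the difference between these 2 arrays. Signals are processed intensities as the scanner software gave them. The log2 ratio is *Drp1*LiKO over control after each array was scaled to its own 75th percentile, a signal of 313 for control and of 356 for *Drp1*LiKO. A gene was its brightest probe. Differences were read at 2 thresholds, 1.5-fold and the Z score of 2 that the study used, where the Z score is the distance of a ratio from the mean of all ratios in units of their SD. A Z score of 2 was a log2 ratio of 1.30 upward and -1.31 downward. Of the error only the part within an array is known. Spots of the same probe printed 10 times gave a noise SD of a log2 ratio of 0.05 to 0.13 at the signals of the members' brightest probes, and the scanner software gave an error of 0.20 or 0.21 for each of those ratios. Neither covers the difference between cultures. In *Drp1*LiKO cells the brightest probe of *Dnm1l* had a signal of 1217 against 2602 in control cells, a log2 ratio of -1.28 and a Z score of -1.95. A dim second probe read 22.8 in control cells and 20.9 in *Drp1*LiKO cells. Whether either probe lies in the floxed part of the gene is not given in the sources used here.

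Markers of cells other than hepatocytes also differed between the arrays. For scale, 10.3% of all genes were at least 1.5-fold higher in *Drp1*LiKO cells and 10.3% at least 1.5-fold lower. Of 13 Kupffer cell and macrophage markers, 11 were detected, 10 had a ratio above 0 and 8 were at least 1.5-fold higher in *Drp1*LiKO cells, with a median log2 ratio of 1.68 and a summed signal of 15595 on the control and 30326 on the *Drp1*LiKO array. *Clec4f*, *Vsig4* and *Mrc1*, which mark Kupffer or other tissue macrophages, were not well above background in control cells, and *Timd4* and *Cd163* on neither array. All 10 endothelial markers had a ratio above 0, 9 of them at least 1.5-fold, with a median of 1.55 and a sum of 4406 on the control and 9450 on the *Drp1*LiKO array. Of 7 detected stellate cell markers 4 were at least 1.5-fold higher, with a median of 1.04 and a sum of 21741 on the control and 26130 on the *Drp1*LiKO array. Of 6 cholangiocyte markers 4 were detected, 2 above and 2 below 0, with a median of 0.09 and a sum of 29379 on the control and 24885 on the *Drp1*LiKO array. The 12 hepatocyte markers, all of them detected, had a median of 0.10, with 7 above 0 and 5 below. At least 1.5-fold higher were 4 of them (33.3%, beside 10.3% of all genes), with *Ahsg* highest at 1.83, and none was 1.5-fold lower. Their summed signal was 848194 on the control and 941422 on the *Drp1*LiKO array. All 10 mitotic genes were at least 1.5-fold lower, with a median of -2.12. In bulk samples, fewer cells of a type and less RNA per cell cannot be told apart. The part of these cells in the ratios that follow was not tested.

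None of the 10 members reached a Z score of 2, upward or downward, which 3.5% of all genes did upward and 2.81% downward. At 1.5-fold, *Gdf15* was higher in *Drp1*LiKO cells and *Fgf21* and *Psat1* were lower, that is 1 gene upward and 2 downward of 10, where 10.3% of all genes passed upward and 10.3% downward. With 10 genes, these counts are near those shares. The members did not share a direction. Their log2 ratios ran from -1.13 for *Fgf21* to 0.69 for *Gdf15*, with 4 genes above 0 and 6 below, a median of -0.16 and an SD of 0.56 across genes. All genes compared had a median of -0.05, with 44.5% above 0 and 55.5% below, and all probes compared an SD of 0.65. The signals of each probe are drawn in the plot of signals by array.

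**Figure D1:**
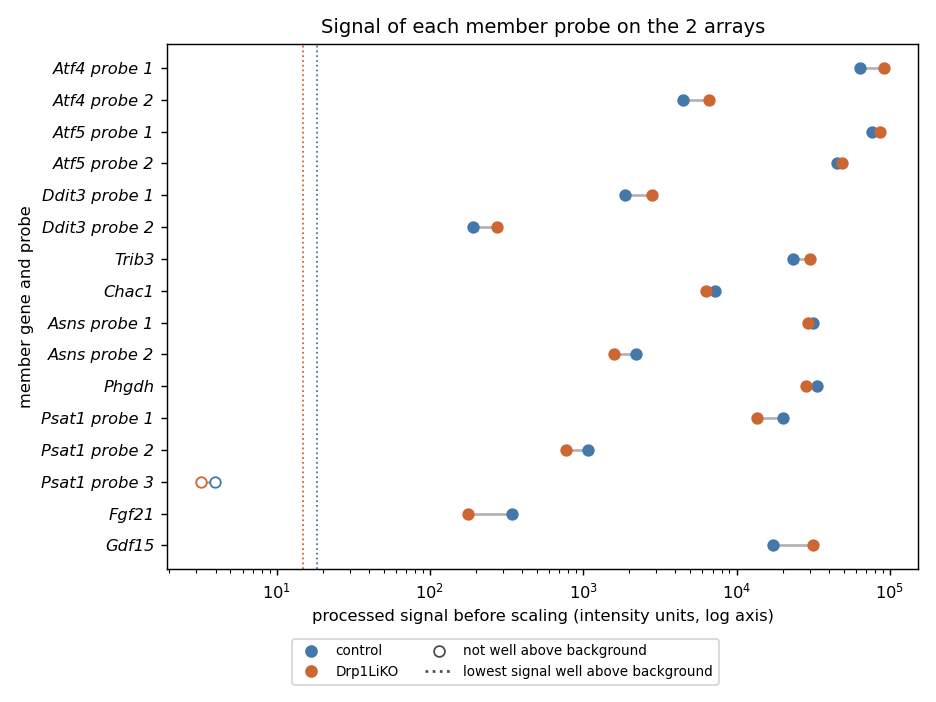
Processed signal of each of the 16 member probes (x axis, intensity units, log scale, before scaling between arrays) on the control array (blue) and the *Drp1*LiKO array (orange), with the probes of a gene numbered from the brightest. Dotted lines mark the lowest signal well above background on each array, 18.2 for control and 15.0 for *Drp1*LiKO, and open points are not well above background, which held for the dimmest *Psat1* probe alone. *Gdf15* and *Fgf21* at the bottom moved in opposite directions, and the probes of *Atf4*, *Ddit3* and *Psat1* moved in parallel.

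Among the transcription factors, *Atf4* and *Ddit3* had higher values in *Drp1*LiKO cells, short of 1.5-fold, whereas *Atf5* did not. *Atf4*, the central activator of the response, read 63644 on the control and 92026 on the *Drp1*LiKO array at its brightest probe (mm9 chr15:80087902-80087961, plus strand), a log2 ratio of 0.35. At a second *Atf4* probe (chr15:80087079-80087138) the signals were 4457 and 6595, a log2 ratio of 0.38. Both probes thus gave nearly the same ratio from very different signals. Their difference was 0.03, within the spot noise. *Ddit3* encodes CHOP, a factor of prolonged endoplasmic reticulum stress. Its brightest probe (chr10:126732518-126732821, plus strand) read 1885 on the control and 2820 on the *Drp1*LiKO array, a log2 ratio of 0.40. A dimmer one, designed to another transcript of the gene, read 190 and 275, a ratio of 0.35. Of all genes, 15.4% had a higher ratio than *Ddit3* and 17.4% a higher one than *Atf4*. *Atf5*, which encodes a factor linked to the mitochondrial unfolded protein response, had signals of 76543 and 86348 at one probe (chr7:52067627-52067686, minus strand) and 45316 and 48575 at the other. After scaling the log2 ratios were -0.01 and -0.08, so that the slightly higher raw signals followed those of the whole array. The *Atf5* value was the least settled in direction. From the scanner signals it lay between -0.05 with the median of its probes and 0.06 with quantile normalization. It was -0.45 with the deposited normalized values, whose *Drp1*LiKO column does not keep the order of probes of the *Drp1*LiKO array (rank correlation 0.988 over probes well above background, against 1 for control), so what that value measures is not settled.

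The brightest probes of *Atf4*, *Atf5*, *Asns*, *Gdf15*, *Psat1* and *Trib3* hold a polyadenylation signal (AATAAA or ATTAAA), as 8 of the 16 member probes did and 13.4% of all probes. The second *Atf4* probe holds none and lies upstream of the first. It is printed with the brightest *Ddit3* probe and the second *Asns* probe because each gives a reading of its gene away from such a signal, and the latter 2 span 304 and 146 bases of genome with 60 bases, that is, they cross an intron and cannot match unspliced RNA or DNA over their full length. All are written 5′ to 3′ as on the array, in lower case with no part marked.
Atf4 second probe: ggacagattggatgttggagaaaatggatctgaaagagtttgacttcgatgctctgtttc
Ddit3 brightest probe: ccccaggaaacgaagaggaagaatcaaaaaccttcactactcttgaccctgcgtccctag
Asns second probe: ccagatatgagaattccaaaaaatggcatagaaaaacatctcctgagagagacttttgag

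The effectors did not share a direction. *Trib3*, a pseudokinase that CHOP and ATF4 induce and that restrains both, read 23462 on the control and 30046 on the *Drp1*LiKO array (chr2:152163161-152163220, minus strand), a log2 ratio of 0.17. *Chac1*, which degrades glutathione and is a target of the same factors, had signals of 7202 and 6336 (chr2:119179990-119180049, plus strand), a log2 ratio of -0.37. Both values were short of 1.5-fold. *Ddit3* and *Chac1* differed in log2 ratio by 0.77, or 1.70-fold, with a software error of 0.29 for the difference.

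The amino acid enzymes were the one role in which every member lay below 0, with *Psat1* past 1.5-fold. *Psat1*, the aminotransferase of serine synthesis, read 20108 on the control and 13686 on the *Drp1*LiKO array (chr19:15979622-15979681, minus strand), a log2 ratio of -0.74 or 1.67-fold lower. A second *Psat1* probe (chr19:15991586-15991645) read 1080 and 768, a ratio of -0.67 or 1.60-fold lower. Those probes start 11964 bases apart in the genome and differed by only 0.06 in log2 ratio, whereas the dimmest, designed to another transcript, was not well above background on either array. *Phgdh*, which catalyzes the first step of the same route, had signals of 33627 and 28394 (chr3:98117098-98117157, minus strand), a log2 ratio of -0.43. *Asns*, asparagine synthetase, read 31670 and 29083 at its brightest probe (chr6:7625171-7625228, minus strand), a log2 ratio of -0.31. Its intron-spanning probe (chr6:7626110-7626255) gave a larger difference, with signals of 2206 and 1598 and a ratio of -0.65, 1.57-fold lower. *Asns* was therefore the only member whose probes fell on both sides of 1.5-fold, and the difference between its probes, 0.34, exceeded the spot noise of 0.06 and 0.11. Raw signals of all 3 genes were also lower in *Drp1*LiKO cells before any scaling. The log2 ratio of *Atf4* exceeded that of *Psat1* by 1.09 and that of *Asns* by 0.65, so the mRNA of the factor and that of its amino acid targets had ratios of opposite sign on these arrays.

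The secreted members marked both ends of the range. *Gdf15* read 17239 on the control and 31633 on the *Drp1*LiKO array (chr8:73153293-73153352, minus strand), a log2 ratio of 0.69 or 1.62-fold higher, with a Z score of 1.07. Of all genes compared, 8.46% had a higher ratio. *Fgf21* read 341 on the control and 177 on the *Drp1*LiKO array (chr7:52869305-52869364, minus strand), a log2 ratio of -1.13 or 2.18-fold lower, with a Z score of -1.71. Only 3.63% of all genes had a lower ratio. Both signals of *Fgf21* were well above the lowest detected signals of 18.2 and 15.0, and each gene had a single probe. The *Fgf21* probe consists mostly of A and T, with repeated stretches, and its specificity was not tested. The ratio of *Gdf15* exceeded that of *Fgf21* by 1.82 on the log2 scale, or 3.53-fold, with a spot noise SD of 0.14 and a software error of 0.29 for the difference. A difference between genes on the same arrays does not depend on a scaling that shifts all probes alike.

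**Figure D2:**
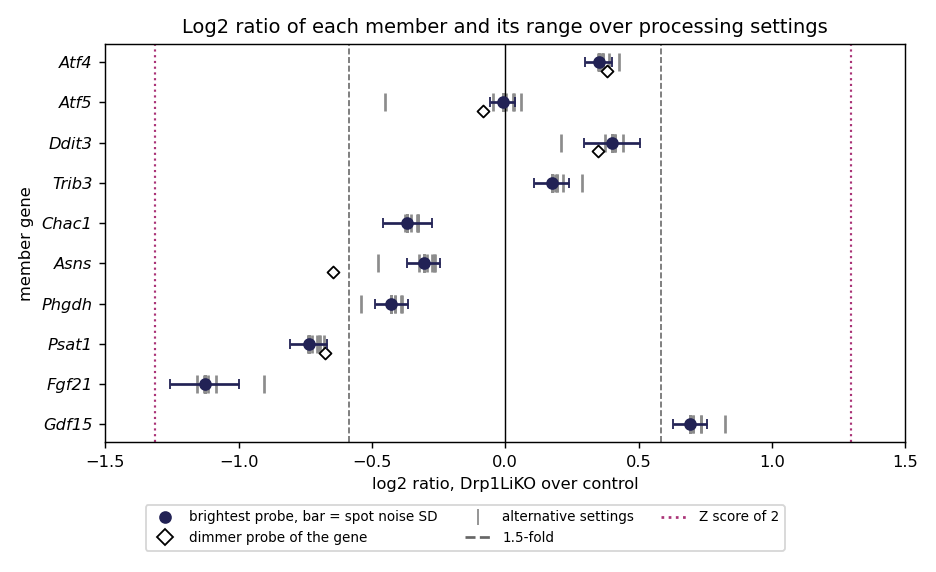
Log2 ratio of *Drp1*LiKO over control for each member (x axis), ordered by role, with filled points for the brightest probe, bars for 1 SD of spot noise, diamonds for dimmer probes and gray ticks for the values under 12 alternative settings, of which 6 can move these ratios. Dashed lines mark 1.5-fold and dotted lines a Z score of 2. *Gdf15* lay right of the upper 1.5-fold line and *Psat1* and *Fgf21* left of the lower one under every setting, and *Asns* was split by its probes. The setting that takes the median of probes can move only genes with several detected probes.

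Signal strength differs among the members, and ratios of dim probes scatter more. *Fgf21* lay in a dimmer and wider part of the distribution than the other members, as the plot of ratio by signal shows. With the Z score taken among probes of similar signal, *Gdf15* passed 2, and *Fgf21* and *Psat1* did not. With the Z score taken over probes well above background on both arrays, *Fgf21* passed and *Gdf15* did not.

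**Figure D3:**
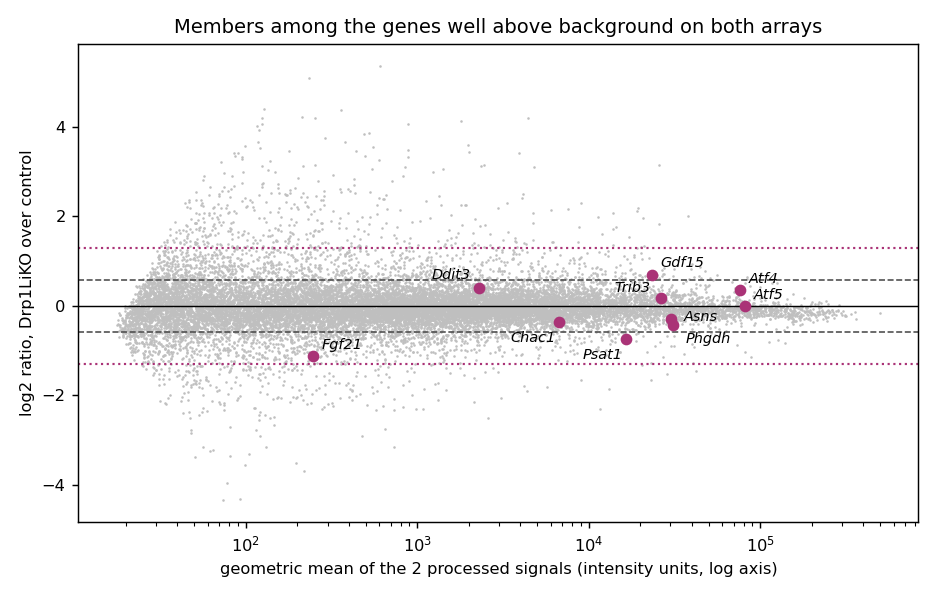
Log2 ratio of *Drp1*LiKO over control (y axis) against the geometric mean of both processed signals (x axis, intensity units, log scale) for genes detected on both arrays (gray) and the 10 members (purple). Dashed lines mark 1.5-fold and dotted lines a Z score of 2, which no member crossed. *Fgf21* is the member with the lowest signals and stands in the wider part of the band.

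The promoters of the members were searched for 2 motifs on both strands, TGATGNAA, the core of the C/EBP-ATF response element (CARE) through which ATF4 acts, and TGACGTCA, the cAMP response element that ATF and CREB proteins bind. The windows were those of RefSeq (GRCm38.p6), 250 bases before to 50 after each annotated start, and all 10 members matched, with 13 windows. The CARE core was found in 4 of 10 members, *Chac1*, *Trib3*, *Asns* and *Fgf21*, against 4.51% of all 27025 genes with a window (3.97% of windows). The members were listed as genes of the response that ATF4 drives, so a higher share could follow from that choice alone. It is no result of the arrays. TGACGTCA was found in no member and in 2.03% of genes. The core lay 193 bases before the start in *Chac1*, 139 in *Fgf21* and 23 in *Asns*, by the first base of the match, and 14 bases after it in *Trib3*, as TTACATCA. These 3 upstream windows are shown because the core lies before the start in them, and the 8 capitals in each mark the match. The *Chac1* window is chr2:119350992-119351241 on the plus strand, and on the minus strand are that of *Fgf21*, chr7:45615491-45615740, and that of *Asns*, chr6:7693210-7693459. Each is written in the direction of transcription and ends 1 base before the start.
Chac1: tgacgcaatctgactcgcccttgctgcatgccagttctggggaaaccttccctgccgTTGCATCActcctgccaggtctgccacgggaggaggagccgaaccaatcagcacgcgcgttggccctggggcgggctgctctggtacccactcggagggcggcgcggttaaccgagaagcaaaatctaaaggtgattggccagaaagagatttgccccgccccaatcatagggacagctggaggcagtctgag
Fgf21: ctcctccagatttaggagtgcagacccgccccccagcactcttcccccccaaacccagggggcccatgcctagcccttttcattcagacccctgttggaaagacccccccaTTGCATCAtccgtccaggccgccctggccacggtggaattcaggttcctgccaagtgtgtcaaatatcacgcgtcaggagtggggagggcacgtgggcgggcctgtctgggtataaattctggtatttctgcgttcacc
Asns: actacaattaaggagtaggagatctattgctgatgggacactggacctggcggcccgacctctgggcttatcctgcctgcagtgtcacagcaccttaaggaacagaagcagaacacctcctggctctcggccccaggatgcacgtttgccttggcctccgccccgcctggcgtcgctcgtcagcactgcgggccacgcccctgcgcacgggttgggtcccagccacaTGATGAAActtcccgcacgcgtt

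*Chac1* and *Fgf21* share the same 8 letters, TTGCATCA, a match on the strand opposite to transcription. A match is a description of letters and no evidence of binding, and the absence of one in the other 6 members says only that this core is not in those windows. The 4 members with the core had log2 ratios of -1.13, -0.37, -0.31 and 0.17. Of the other pathway genes listed below, which were also chosen for this response, 14 of 75 with a window (18.7%) held the core. The median log2 ratio of those 14 was 0.05. The 371 compared genes with the core had a median of -0.02, and 14.0% of them were at least 1.5-fold higher and 10.2% at least 1.5-fold lower, where the 11581 compared genes with a window had a median of -0.04, 10.2% higher and 10.1% lower.

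Around the members, 98 further genes of the pathway were taken by list, of which 96 were detected. Of these, 37 had a ratio above 0 and 59 below (61.5%, beside 55.5% of all genes), 4 were at least 1.5-fold higher (4.17%) and 8 at least 1.5-fold lower (8.33%), beside 10.3% of all genes in each direction, and the median was -0.08. Upstream, of the 6 eIF2 kinases and relay genes none passed 1.5-fold, with log2 ratios from -0.38 for *Oma1*, the inner membrane protease that starts the mitochondrial relay, to 0.25 for *Eif2ak2*, which encodes the RNA-sensing kinase PKR. Their median was -0.11. Probes of 3 of these kinases disagreed in sign. The brightest probe gave -0.17 for *Eif2ak1*, -0.05 for *Eif2ak3* and 0.19 for *Eif2ak4*, and another gave 0.40, 0.23 and -0.29. The 8 subunits of eIF2 and its exchange factor eIF2B lay between -0.16 (*Eif2b1*) and 0.23 (*Eif2s3x*) at their brightest probes, whereas dimmer probes gave -0.59 for *Eif2b1*, 0.78 for *Eif2b4* and -0.17 for *Eif2s3x*. Among 5 genes of eIF2 dephosphorylation and feedback, *Ppp1r15a*, which encodes the stress-induced phosphatase subunit GADD34, read 6700 on the control and 11296 on the *Drp1*LiKO array, a ratio of 0.57 and just short of 1.5-fold, which it passed with spike-in scaling, with normexp background correction and with the deposited values. *Dnajc3*, an inhibitor of the eIF2 kinases, fell by 0.80 on the log2 scale, from a signal of 324 to 210.

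Among the 10 partner factors of ATF4, *Creb3l3* alone passed 1.5-fold. This liver factor, which activates *Fgf21* with PPARα, read 2333 on the control and 5559 on the *Drp1*LiKO array, a log2 ratio of 1.07. The lowest was *Nfe2l2*, with -0.42 at its brightest probe and 0.28 at another. *Atf2* had -0.13 at its brightest probe and 0.78 at another, past 1.5-fold. The median of the list was 0.10.

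The lists of amino acid enzymes and transporters had the lowest medians of the pathway lists. Of 13 amino acid and one-carbon enzymes, 11 had a ratio below 0 (84.6%, beside 55.5% of all genes) and the median was -0.29. At their brightest probes, 2 of them were at least 1.5-fold lower (15.4%, near the 10.3% of all genes) and none was higher. *Pycr1*, 1 of these 2, had dim signals of 71.1 and 45.9 and was not counted with normexp background correction. Other probes gave 0.87 for *Aldh1l2*, past 1.5-fold upward, 0.17 for *Shmt1* and 0.02 for *Mthfd2*. The brightest probes of these 3 genes were below 0. *Cbs*, the first enzyme of transsulfuration, read 10403 on the control and 5837 on the *Drp1*LiKO array, a log2 ratio of -1.02 at its only probe. *Got1*, an aspartate aminotransferase, was highest with 0.34. Of 12 amino acid transporters, 10 were below 0 (83.3%), 3 at least 1.5-fold lower (25.0%) and none higher, and the median was -0.35. Other probes gave 0.40 for *Slc38a2* and 0.15 for *Slc3a2*, whose brightest probes were below 0. *Slc43a1*, a transporter of branched-chain amino acids, had signals of 60.2 and 24.6, a log2 ratio of -1.47 and a Z score of -2.24, the only pathway gene to pass 2 downward. Its second probe gave -0.22, so the value rests on 1 dim probe. The highest was *Slc7a11*, the cystine importer that ATF4 and NRF2 both drive, with signals of 3830 and 5883, a ratio of 0.44 at its brightest probe and up to 1.51 at others. Of 21 genes of tRNA charging, none passed 1.5-fold at its brightest probe and 16 were below 0 (76.2%), from -0.38 (*Iars*) to 0.13 (*Wars*) with a median of -0.12. Dimmer probes of *Hars* and *Dars* gave 1.96 and 0.70, so that *Hars* passed 1.5-fold upward with the median of its probes, and *Nars* passed downward with the deposited values. Over the alternative settings, the median was -0.11 to -0.30 for the enzymes and -0.15 to -0.38 for the transporters. For tRNA charging it came to -0.01 with the median of probes, where all genes had -0.04.

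**Figure D4:**
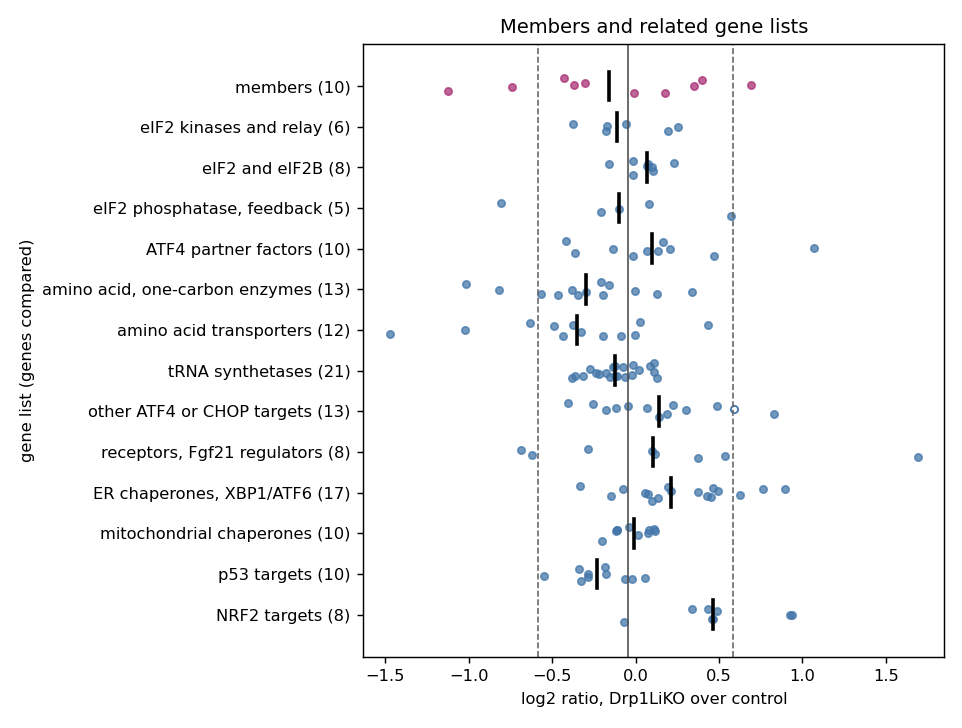
Log2 ratio of *Drp1*LiKO over control (x axis) for the members (purple) and for the genes of related lists (blue), 1 point per gene at its brightest probe and the number of genes compared in brackets, with points spread vertically for display alone. Thick bars are list medians, the thin line is the median of all genes (-0.05), dashed lines mark 1.5-fold, and the open point is a bound. The enzyme and transporter lists lay left of the line and the NRF2 and ER chaperone lists right of it.

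The remaining targets of ATF4 or CHOP had a median of 0.14. Of these 13, 2 were at least 1.5-fold higher (15.4%, near the 10.3% of all genes). *Vegfa*, an angiogenic factor, read 1022 on the control and 2060 on the *Drp1*LiKO array, a log2 ratio of 0.83, with all 4 probes between 0.59 and 0.99. The other was *Stc2*, with a signal of 3.63 on the control array, not well above background, and 31.1 on the *Drp1*LiKO array. Its log2 ratio, a bound of 0.587, only just passed the threshold of 0.585. *Stc2* was not counted with quantile normalization, normexp background correction, the deposited values or probes well above background on both arrays. *Bbc3*, an apoptotic target, was lowest with -0.40.

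The receptors of the mitokines and the liver regulators of *Fgf21* were spread widely. *Ppargc1a*, the coactivator PGC-1α, read 133 on the control and 489 on the *Drp1*LiKO array, a log2 ratio of 1.69 with a Z score of 2.61, the only pathway gene to pass 2 upward, and 1.80 at a second probe. *Klb*, the coreceptor of FGF21, had signals of 48.4 and 34.1, a ratio of -0.69. *Gfral* and *Ret*, which form the GDF15 receptor in brainstem neurons, were not well above background on either array. *Fgf21* had its lower signal on the array on which *Ppargc1a* and *Creb3l3* had their higher ones, and whether these values are linked was not tested.

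For comparison, 4 lists of neighboring stress programs were set beside the members. Of all genes, 44.5% were above 0 and 10.3% at least 1.5-fold higher. Of 17 ER chaperone genes and targets of XBP1 or ATF6, 14 were above 0 (82%) and 3 at least 1.5-fold higher (17.6%). Their median was 0.21, with *Sdf2l1* highest at 0.90. Of 8 NRF2 targets, 7 were above 0 (87.5%) and 2 at least 1.5-fold higher (25%), with a median of 0.46 and *Srxn1* highest at 0.94. The 10 mitochondrial chaperones and proteases stayed between -0.20 and 0.12 with none past 1.5-fold. Of 10 targets of p53, which also regulates *Gdf15*, 9 were below 0 (90%, beside 55.5% of all genes). None passed 1.5-fold at its brightest probe, and the median was -0.23. *Cdkn1a* had -0.06 at its brightest probe, and its 3 probes ran from -0.59, past 1.5-fold downward, to 0.08.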

How the data were processed

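RNA from control and *Drp1*LiKO primary hepatocytes was read in 1 color (Cy3) on 60-mer Agilent mouse arrays, 1 per genotype. The authors deposited scanner output in which Feature Extraction (version 10.7.1.1 by the file headers, 9.5.1.1 by the submitters' processing notes) gave each spot an intensity after background subtraction and detrending, with no normalization between arrays. A second deposited table holds normalized intensities, whose method is not given in the sources used here, and its *Drp1*LiKO column does not keep the probe order of that array, so it served only as an alternative. Without outlier spots, the mean log2 signal of each probe was taken and scaled to the 75th percentile of its array. The comparison covered 30275 probes, those detected (well above background) in control, in *Drp1*LiKO cells or in both. An undetected signal below the lowest detected one of its array was raised to it, so such ratios are bounds. Undetected signals above that level were left unchanged. No spot was saturated.

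The members and gene lists were chosen with earlier results of these data known. Named were all members, *Dnm1l*, genes past a Z score of 2 and the highest and lowest gene of pathway lists, and other genes as chosen after their values were seen. Probe coordinates are in mm9, promoter windows in GRCm38.p6. Alternatives are given in the closing section. The steps were tested on simulated data. Calculations used Python 3.11.15, numpy 2.4.6, pandas 2.3.3, matplotlib 3.10.9, R 4.3.3 and limma 3.58.1. Precision is limited by the number of arrays.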

Additional observations from a re-analysis of the deposited data

How the results depend on the processing

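The alternatives were quantile normalization, spike-in or median scaling, normexp background correction with an offset of 50, the deposited normalized values, 2 other filters for detection, outlier spots retained, signals without a floor, the median of a gene's probes and other Z scores. Of these 12, only 6 can move the ratio of a detected member, the scalings, normexp, the deposited values and the median of probes. The last cannot move *Trib3*, *Chac1*, *Phgdh*, *Fgf21* or *Gdf15*, which have a single probe each. Spike-in and median scaling only shift all ratios of detected genes alike, by 0.04 or less. Under those 6, *Gdf15* stayed at least 1.5-fold higher and *Fgf21* and *Psat1* at least 1.5-fold lower. *Gdf15* lay between 0.69 and 0.82, *Fgf21* between -1.15 and -0.91 and *Psat1* between -0.74 and -0.68 on the log2 scale. *Atf4*, *Ddit3* and *Trib3* stayed above 0 and *Asns*, *Chac1* and *Phgdh* below. The sign of *Atf5* changed with the setting and was positive in 4 of those 6. Which member passed a Z score of 2 depended on how the Z score was taken. Upward, *Gdf15* passed (1 member, against 0) with a robust Z score and with one among probes of similar signal. Downward, *Fgf21* passed (1 member, against 0) with normexp, with the robust Z score and with probes well above background on both arrays. The deposited *Drp1*LiKO column does not keep the probe order of its array, so its values may not be a mere change of processing. With them the median of the members was -0.32, against -0.16. Pathway genes at least 1.5-fold higher numbered 9 with the deposited values and 7 with the median of probes, against 4, and those lower numbered 4 with normexp, against 8. The ratio of *Slc43a1* was -0.65 with normexp. Using only bases before the start left 3 of 4 members with the CARE core. Apart from the alternatives' own construction, the cause was not tested. Dim signals limit *Fgf21* and the dimmer probes most. No paired analysis was possible because each group had 1 array.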
